A study of Homo sapiens with 18 samples.

Results

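The genes described here encode the kinetochore, the centromere chromatin under it and the spindle checkpoint that reads it: 42 genes, found by symbol from a list of names with no threshold on measured values, though with earlier results of these data known, of 58735 genes in the RBCK1 and ANKRD35 tables and 29928 symbols in the MITD1 table. All 42 symbols were found in each table. RNA-seq was made from 786-O, a long-established cell line of clear cell renal carcinoma that lacks functional VHL. The series ties RBCK1, a subunit of the linear ubiquitin ligase, to ANKRD35 and MITD1 in renal cancer. Of 18 libraries in 6 groups of 3, shRBCK1 cells carried a short hairpin RNA against RBCK1 and were set against shcontrol cells. The siANKRD35 cells were set against sicontrol_for_siANKRD35 cells, and the siMITD1 cells against sicontrol_for_siMITD1 cells. All groups shared the line and the medium, and no drug or time point is named. For the ANKRD35 knockdown the column names speak of a hairpin and the titles of an siRNA, so which reagent was used is uncertain. Whether libraries of 1 group came from separate cultures, and how many hairpins, siRNAs or clones were used, is not given in the sources used here, so the p-values measure only how far these libraries differed, which may be technical variation.

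At each division, the centromere is marked by nucleosomes that hold the histone H3 variant CENP-A. On them a constitutive inner layer of CENP proteins carries an outer layer that grips spindle microtubules. Kinetochores without a proper grip recruit the checkpoint proteins, which hold the anaphase-promoting complex back until every chromosome is attached, and the chromosomal passenger complex with Aurora B releases faulty grips. Most of these genes are transcribed late in the cell cycle, through promoter elements bound by the DREAM and MuvB complexes, NF-Y and E2F factors. In RNA from bulk cells, a larger share of cells in mitosis and more RNA per cell cannot be told apart.

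Values are FPKM, fragments per kilobase of gene and scaled to library size, as deposited. Reads per library were 16346478 to 18648246 in the RBCK1 table, 17502646 to 19034974 in the ANKRD35 table and about 14443683 to 15780425 in the MITD1 table. The tables were normalized separately, so each knockdown was compared with its own controls. RBCK1 was at 30.8, 32.03 and 32.9 FPKM in shRBCK1 libraries, against 487, 492 and 462 FPKM in shcontrol. In the other tables it lay between 54.7 and 96.6 FPKM. RBCK1 was itself higher in siMITD1, at 91.8, 95.2 and 96.6 FPKM, against 66.5, 65.2 and 64.7 FPKM in sicontrol_for_siMITD1 (log2 change 0.52, limma adjusted p = 1.19e-06). It did not pass in the ANKRD35 comparison (log2 change -0.19, limma adjusted p = 0.156). ANKRD35 was at 0, 0 and 0.0332 FPKM in siANKRD35, against 753, 687 and 742 FPKM in sicontrol_for_siANKRD35, while no library of the other tables exceeded 0.0392 FPKM. MITD1 was at 2.43, 2.66 and 3.03 FPKM in siMITD1, against 7.16, 7.42 and 7.83 FPKM in sicontrol_for_siMITD1. Each targeted gene was lower in its knockdown. The RBCK1 and ANKRD35 controls stood far above every library of the other tables in the targeted gene. The siANKRD35 libraries were thus at the level of the line in the other tables, and it was their controls that departed from it. What those controls carried is not given in the sources used here, so both the RBCK1 and the ANKRD35 comparison may not be with unmodified cells. The part of those control levels in any result was not tested. Of 8 markers of the renal carcinoma line, 7 reached 1 FPKM in each table (CA9 did not), and the summed markers of fibroblasts, of endothelium and of blood each stayed at 4.80 FPKM or less in every library.

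Knockdown of RBCK1 was accompanied by higher RNA of most of these genes. Of 41 members tested, 25 were higher in shRBCK1 and 4 lower at an adjusted p under 0.05 (limma), and 12 did not pass; over all 12227 genes tested, 24.1% were higher and 24.9% lower, 49.1% in all. The median log2 change of the members was 0.16, beside 0.0054 for all genes. All 3 shRBCK1 libraries lay above all 3 shcontrol libraries for 25 of the 41 and below them for 6, where 29.4% and 29.6% of all genes did so. The changes were small, and 1 member was more than 1.5-fold higher. Without shRBCK1 replicate 3 or shcontrol replicate 2, 2 members were called lower in place of 4. CENPP, an inner kinetochore subunit, stayed under 1 FPKM in all 3 tables and was not tested. All log2 changes are on the log2(FPKM + 1) scale, as the knockdown minus its control, with the standard error of limma, and understate the change of weakly expressed genes.

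**Figure D1:**
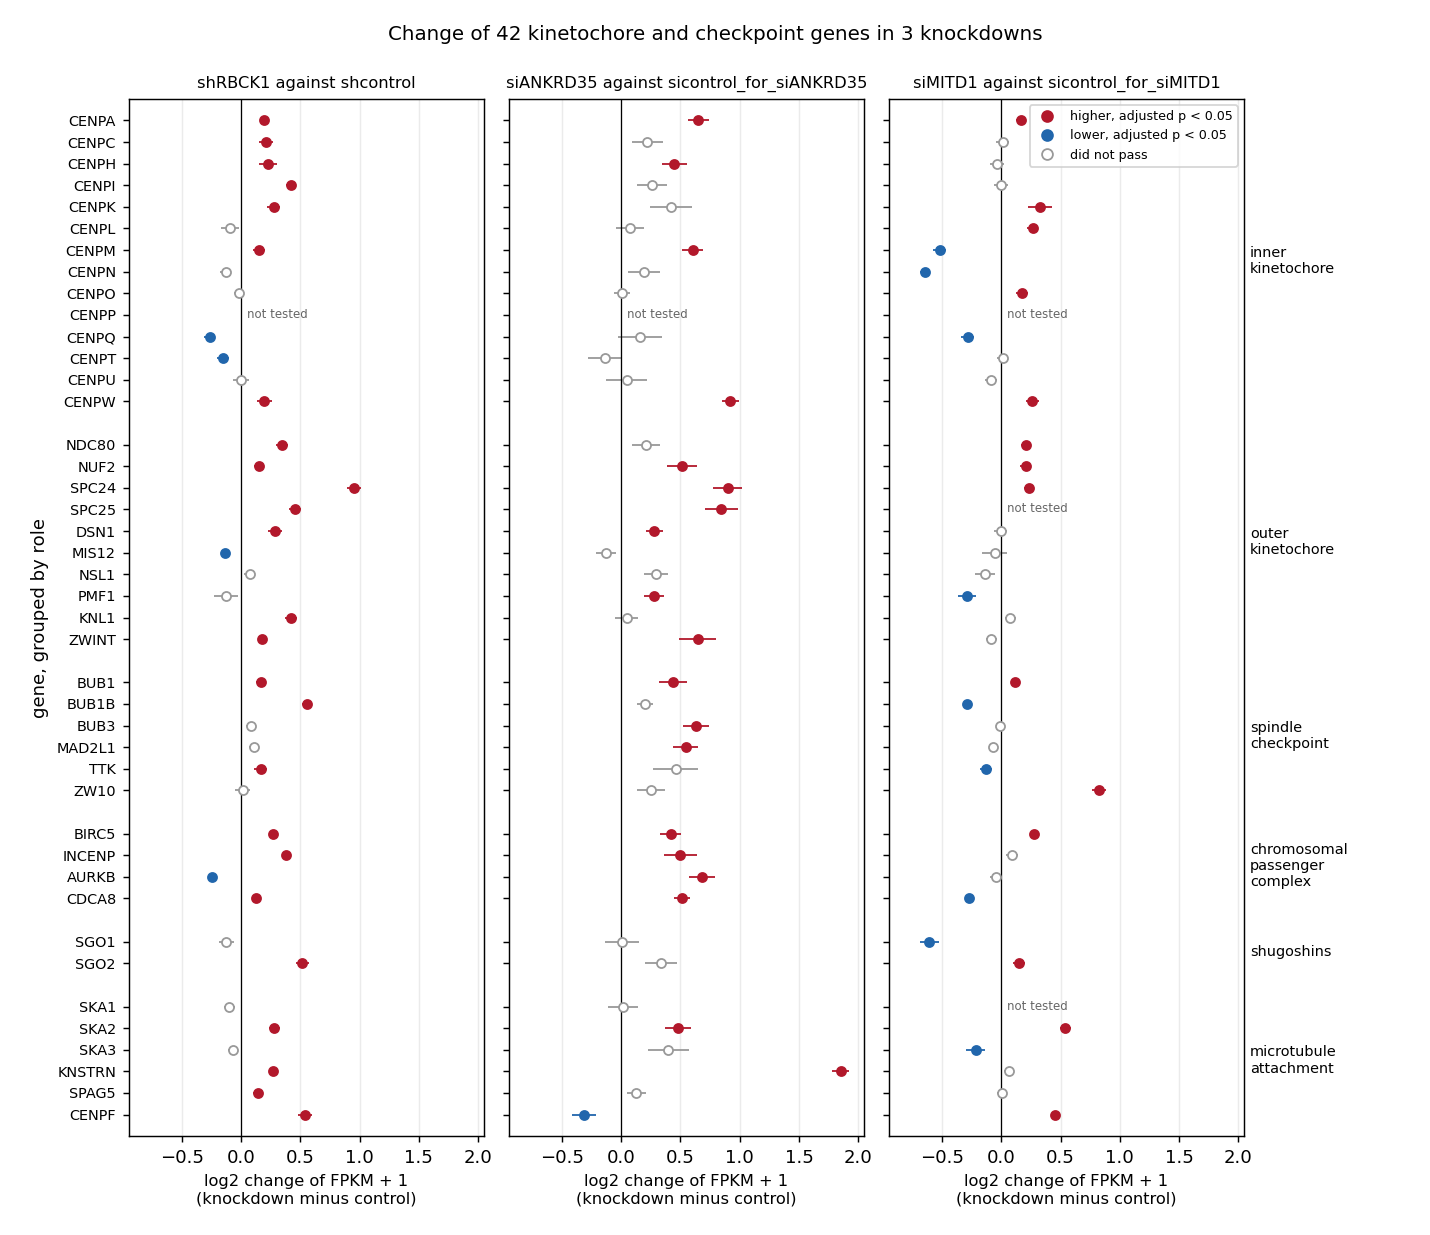
Each point is the log2 change of 1 gene (log2(FPKM + 1), knockdown minus control) with its standard error, in rows grouped by role, 1 panel per comparison of 3 against 3 libraries. Filled points passed an adjusted p under 0.05 (red higher, blue lower in the knockdown): 25 and 4 for RBCK1, 19 and 1 for ANKRD35, 14 and 9 for MITD1.

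In the inner kinetochore, 7 of 13 tested members rose with RBCK1 knockdown (53.8%, beside 24.1% of all genes). In the same layer 2 fell (15.4%, beside 24.9%) and 4 did not pass. After correction for gene length and GC content 3 were higher and 2 lower. CENPA, the histone that defines the centromere, had 36.5, 36.1 and 36.3 FPKM in shRBCK1 libraries, against 32.3, 31.1 and 31.6 FPKM in shcontrol, without overlap (0.19 ± 0.030, adjusted p = 0.00155). CENPI, part of the CENP-H, I, K and M group, changed most of the inner layer, with 10.5, 10.5 and 10.2 FPKM in shRBCK1 libraries, against 7.08, 7.77 and 7.69 FPKM in shcontrol (0.42 ± 0.045, adjusted p = 0.000246). Its partners CENPK (0.27), CENPH (0.22) and CENPM (0.15) rose less, as did CENPC (0.21) and CENPW (0.19). The calls of CENPC, CENPH, CENPK and CENPW did not hold after that correction (log2 changes 0.13, 0.20, 0.15 and 0.11). CENPC is the long scaffold between CENP-A chromatin and the outer layer, and CENPW is a histone-fold partner of CENPT. In the opposite direction, CENPQ, of the CENP-O, P, Q and U group, had 8.22, 8.43 and 7.68 FPKM in shRBCK1 libraries, against 9.91, 9.60 and 10.3 FPKM in shcontrol and fell by 18.4% (-0.26 ± 0.047, adjusted p = 0.00297). CENPT, which recruits the Ndc80 complex, had 8.46, 9.57 and 9.23 FPKM in shRBCK1 libraries, against 10.4, 10.3 and 10.00 FPKM in shcontrol (-0.15 ± 0.050, adjusted p = 0.0346). Both were below every control library. The other 4, CENPN (-0.13), CENPL (-0.092), CENPO (-0.020) and CENPU (-0.0012), did not pass.

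The outer kinetochore held the largest change: 7 of 10 members rose (70.0%), 1 fell (10.0%) and 2 did not pass. SPC24, which with SPC25 forms the kinetochore end of the Ndc80 complex, had 11.02, 11.4 and 11.6 FPKM in shRBCK1 libraries, against 5.60, 5.66 and 4.87 FPKM in shcontrol. The groups were far apart, at 11.3 ± 0.282 FPKM in shRBCK1 and 5.38 ± 0.439 FPKM in shcontrol (SD, n = 3 each), a 2.11-fold difference (0.95 ± 0.057, adjusted p = 1.54e-05). SPC25 had 19.4, 19.1 and 18.9 FPKM in shRBCK1 libraries, against 14.8, 12.7 and 13.6 FPKM in shcontrol (0.45 ± 0.054, adjusted p = 0.000428). NDC80, the subunit that binds microtubules, had 23.1, 23.6 and 21.7 FPKM in shRBCK1 libraries, against 16.8, 18.8 and 17.9 FPKM in shcontrol (0.34 ± 0.051, adjusted p = 0.00123). Its partner NUF2 rose less, by 0.15, so the 4 subunits of 1 complex rose by unequal amounts. KNL1, the scaffold that docks the checkpoint kinase BUB1, had 11.01, 10.1 and 10.4 FPKM in shRBCK1 libraries, against 7.23, 7.70 and 7.84 FPKM in shcontrol (0.42 ± 0.048, adjusted p = 0.000338). Among the 4 subunits of the Mis12 complex, which joins the inner to the outer layer, DSN1 rose (0.29) and MIS12 fell, with 9.91, 10.1 and 9.71 FPKM in shRBCK1 libraries, against 11.3, 10.8 and 10.7 FPKM in shcontrol (-0.13 ± 0.039, adjusted p = 0.0234). NSL1 (0.071) and PMF1 (-0.13) did not pass. ZWINT, the KNL1 partner, was the most abundant member in shcontrol and rose by 0.18, at 60.2 ± 1.27 FPKM in shRBCK1 and 53.2 ± 0.167 FPKM in shcontrol.

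The promoters of SPC24 and CENPQ are shown because these had the largest increase and the largest decrease after RBCK1 knockdown. They are the 250 bases before the RefSeq start on GRCh38.p14 (chr19:11155783-11156032, minus strand for SPC24, chr6:49463120-49463369, plus strand for CENPQ), 5′ to 3′ in the direction of the gene. Capitals mark, on either strand, TTTGAA (the core of the cell cycle gene homology region, CHR), CCAAT (the NF-Y box, ATTGG on the other strand) and the E2F words TTTGGCGC, TTTCCCGC, TTTGCCGC and TTTCGCGC.
SPC24: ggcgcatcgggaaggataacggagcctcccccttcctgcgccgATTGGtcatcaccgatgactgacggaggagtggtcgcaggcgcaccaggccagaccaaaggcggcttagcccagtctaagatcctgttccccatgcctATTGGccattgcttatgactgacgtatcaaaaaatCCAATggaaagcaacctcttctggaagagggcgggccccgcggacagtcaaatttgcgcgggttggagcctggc
CENPQ: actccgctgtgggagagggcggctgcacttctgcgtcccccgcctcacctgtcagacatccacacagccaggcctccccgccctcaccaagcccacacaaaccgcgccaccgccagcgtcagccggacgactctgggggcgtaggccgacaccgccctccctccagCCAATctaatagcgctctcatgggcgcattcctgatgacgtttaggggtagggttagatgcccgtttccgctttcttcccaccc
Both hold CCAAT boxes, 3 in SPC24 and 1 in CENPQ, and neither holds the CHR core in this stretch. In the 300-base window that adds 50 bases after the start, 35 members were searched; BIRC5, BUB3, CENPH, CENPL, CENPM, KNL1 and TTK were not analysed here. CCAAT was in 23 of the 35 (65.7%, against 39.7% of 27305 genes), the CHR core in 17 (48.6%, against 18.2%) and an E2F word in 3 (8.57%, against 3.99%). Of the tested members with the CHR core, 11 of 17 were higher and 0 lower after RBCK1 knockdown, and of those without it 9 of 17 were higher and 4 lower. After ANKRD35 knockdown 7 of 17 with the core were higher and 1 lower, and without it 8 of 17 and 0. After MITD1 knockdown 6 of 15 with it were higher and 4 lower, and without it 6 of 17 and 3. These counts are a description without a test.

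Among the 6 checkpoint genes, 3 rose with RBCK1 knockdown and 3 did not pass. BUB1B (BubR1), a subunit of the mitotic checkpoint complex, had 30.9, 30.7 and 28.6 FPKM in shRBCK1 libraries, against 19.8, 19.7 and 20.9 FPKM in shcontrol. The lowest knockdown library was well above the highest control (30.1 ± 1.30 FPKM in shRBCK1 and 20.1 ± 0.638 FPKM in shcontrol, SD, n = 3 each; 0.55 ± 0.043, adjusted p = 5.06e-05). Its read-through gene BUB1B-PAK6 shares 10.2% of exonic bases and was listed at 0 in each of these libraries. BUB1, the kinase that marks the inner centromere, had 33.6, 30.8 and 31.4 FPKM in shRBCK1 libraries, against 27.7, 28.8 and 28.7 FPKM in shcontrol, a smaller rise (0.16 ± 0.041, adjusted p = 0.0134). MAD2L1, which captures CDC20 to hold back anaphase, had 23.3, 23.3 and 22.3 FPKM in shRBCK1 libraries, against 20.5, 20.9 and 22.4 FPKM in shcontrol. Its groups overlapped and it did not pass (0.11 ± 0.043, adjusted p = 0.0756). TTK, the kinase that starts checkpoint signalling, rose by 0.16, and BUB3 (0.084) and ZW10 (0.013) did not pass.

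The chromosomal passenger complex moved in both directions. AURKB, its kinase, had 39.3, 40.8 and 38.5 FPKM in shRBCK1 libraries, against 48.1, 47.4 and 45.7 FPKM in shcontrol, below every control, and fell by 16.03% (-0.25 ± 0.036, adjusted p = 0.0011). Its 3 partners rose: BIRC5 (survivin) had 54.8, 58.2 and 55.7 FPKM in shRBCK1 libraries, against 46.4, 46.7 and 46.05 FPKM in shcontrol (0.27 ± 0.033, adjusted p = 0.00046). INCENP, the scaffold that activates the kinase, rose by 0.38, with 23.9 ± 0.158 FPKM in shRBCK1 and 18.2 ± 0.573 FPKM in shcontrol. CDCA8 (borealin) rose by 0.12. Of the shugoshins, which protect centromeric cohesin, SGO2 had 13.996, 12.5 and 12.2 FPKM in shRBCK1 libraries, against 8.53, 8.76 and 8.83 FPKM in shcontrol (0.51 ± 0.054, adjusted p = 0.000237). SGO1 did not pass (-0.13).

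Of 6 genes that couple kinetochores to microtubules, 4 rose (66.7%, beside 24.1% of all genes) and 2 did not pass. CENPF, a very large protein of kinetochores and the nuclear envelope, had 35.1, 30.7 and 30.3 FPKM in shRBCK1 libraries, against 21.6, 21.2 and 22.4 FPKM in shcontrol (0.54 ± 0.059, adjusted p = 0.00028). Every shRBCK1 library exceeded every control. SKA2 (0.28), KNSTRN (0.27) and SPAG5 (0.14) rose less. SKA1 (-0.10) and SKA3 (-0.070), the other subunits of the Ska complex, did not pass. Of the 29 calls in this comparison, 18 held under every alternative run; of the genes given here by library, CENPT and MIS12 were the exceptions, with adjusted p over the alternatives of 0.0186 to 0.0961 and 0.00891 to 0.0869. The log2 change of BUB1 was 0.13 to 0.25 over the alternatives, highest with quantile normalization.

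Lists of genes around the kinetochore are set beside all genes tested after RBCK1 knockdown, of which 24.1% were higher and 24.9% lower. Of 9 CENP-A deposition genes, 6 rose (66.7%) and 1 fell (11.1%). The CENP-A chaperone HJURP was among those that rose (0.24, limma adjusted p = 0.000845). Of 25 other kinetochore and checkpoint genes, 9 rose and 3 fell. MAD2L1BP (p31comet), which takes the checkpoint complex apart, fell by 40.7% to 16.9, 17.9 and 18.9 FPKM in shRBCK1 libraries, against 31.1, 29.6 and 29.8 FPKM in shcontrol (-0.72 ± 0.046, adjusted p = 2e-05). NDE1, a dynein regulator, rose (0.32). Of 15 cohesin genes, 8 rose (53.3%) and 2 fell (13.3%), namely the loader subunit MAU2 (-0.36) and CDCA5, or sororin (-0.28). Of 17 tested genes of the anaphase-promoting complex, 7 rose (41.2%) and 0 fell, ANAPC16 (0.43) and CDC27 (0.33) with the smallest adjusted p. Of 22 tested regulators of late cell cycle promoters, 8 rose (36.4%) and 3 fell (13.6%). Among them the atypical E2F repressor E2F8 rose (0.76) and its relative E2F7 fell (-0.53).

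In siANKRD35 cells 38 of 41 tested members had a positive log2 change, where 6385 of 11890 genes did. The amounts were larger but less even than after RBCK1 knockdown. Of 41 members tested, 19 were higher, 1 lower and 21 did not pass (limma, adjusted p under 0.05), where 19.4% of all 11890 genes were higher and 16.9% lower, 36.3% in all. The median log2 change was 0.34, beside 0.033 for all genes. More than 1.5-fold higher were 11 members, for which no share over all genes is given here. All siANKRD35 libraries lay above all controls for 25 members and below them for 1, where 28.1% and 24.1% of all genes did so. By role, 4 of 13 inner kinetochore genes rose, 6 of 10 outer kinetochore genes, 3 of 6 checkpoint genes, all 4 passenger complex genes, 0 of 2 shugoshins and 2 of 6 attachment genes.

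Several library properties moved with this comparison. The library siANKRD35 replicate 2 stood apart: it was the highest of its group for 25 members (median GC content 40.8%) and the lowest for 9 (median GC content 52.2%). Across genes, the change also ran with gene length (Spearman's rho -0.41 over all genes and -0.42 over the members), so that short genes were higher; in the RBCK1 and MITD1 comparisons the rho over the members was 0.18 and 0.23. Once each library was corrected for gene length and GC content, the median log2 change of the members was 0.22, with 22 higher and 1 lower. Over all genes that median was 0.039, and the calls went from 2305 higher and 2007 lower to 3067 and 2258. Without replicate 2 the median was also 0.22, with 23 higher and 2 lower. Leaving out control replicate 1, 2 or 3 left 11, 10 and 11 higher, and leaving out siANKRD35 replicate 3 left 13, with 0 lower each time. The background moved too: leaving out single libraries gave 2267 to 6536 calls over all genes, beside 4312 in the full fit.

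**Figure D2:**
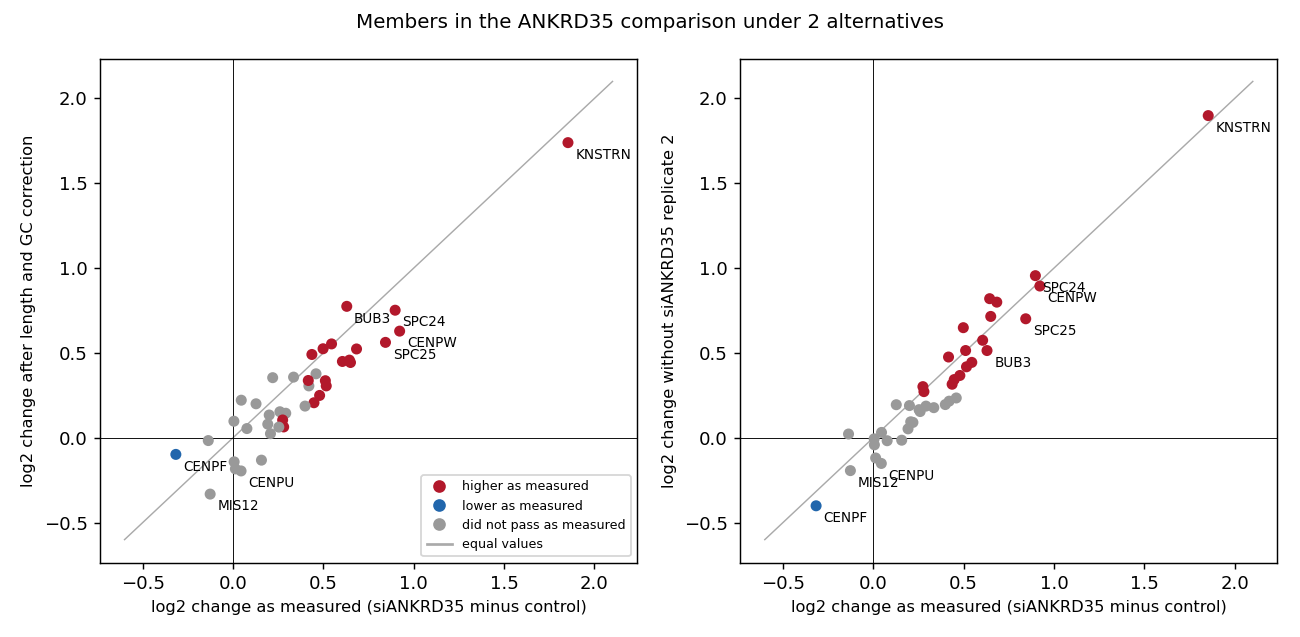
Each point is 1 of 41 members in the ANKRD35 comparison; the x axes give the log2 change as measured (siANKRD35 minus its control) and the y axes the change after length and GC correction (left) or without siANKRD35 replicate 2 (right), with the diagonal marking equal values. KNSTRN stayed at the top right in both panels (1.74 and 1.90), while CENPF moved toward 0 after the correction (-0.098).

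KNSTRN (kinastrin), which with SPAG5 (astrin) stabilizes microtubule grips, had the largest change of any member in the study. It had 93.1, 85.4 and 94.7 FPKM in siANKRD35 libraries, against 24.9, 24.5 and 24.03 FPKM in sicontrol_for_siANKRD35, 91.1 ± 4.98 FPKM in siANKRD35 and 24.5 ± 0.415 FPKM in sicontrol_for_siANKRD35 (SD, n = 3 each), a 3.72-fold difference (1.85 ± 0.070, adjusted p = 0.000105). The groups were widely apart, and by size of increase KNSTRN was number 7 of all 11890 genes tested. Over the alternatives its log2 change stayed at 1.64 to 1.90. SPAG5 itself did not pass (0.13). CENPF was the only member to fall: it had 7.33, 9.62 and 8.53 FPKM in siANKRD35 libraries, against 10.5, 10.8 and 11.05 FPKM in sicontrol_for_siANKRD35 (-0.32 ± 0.10, adjusted p = 0.046). That call did not hold after the length and GC correction, where the log2 change was -0.098, nor without any single control library, siANKRD35 replicate 1 or replicate 3; over all alternatives the adjusted p was 0.00438 to 0.192. SKA2 rose (0.48), and SKA1 (0.013) and SKA3 (0.40) did not pass.

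The promoters of KNSTRN and CENPF are shown as those of the largest increase and the largest decrease in this comparison (GRCh38.p14, RefSeq, 250 bases before the start; chr15:40382471-40382720, plus strand and chr1:214602945-214603194, plus strand), with capitals as above.
KNSTRN: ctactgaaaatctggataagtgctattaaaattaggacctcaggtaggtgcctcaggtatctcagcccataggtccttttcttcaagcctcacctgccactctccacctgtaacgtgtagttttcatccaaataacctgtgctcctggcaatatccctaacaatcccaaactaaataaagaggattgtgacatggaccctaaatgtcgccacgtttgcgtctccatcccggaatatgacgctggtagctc
CENPF: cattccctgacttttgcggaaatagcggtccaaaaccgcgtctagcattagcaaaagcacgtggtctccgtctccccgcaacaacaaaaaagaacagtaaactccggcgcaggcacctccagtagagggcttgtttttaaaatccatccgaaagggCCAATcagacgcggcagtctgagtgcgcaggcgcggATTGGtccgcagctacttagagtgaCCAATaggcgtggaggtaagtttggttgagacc
KNSTRN holds none of the words searched in this stretch, and CENPF holds 3 CCAAT boxes, the nearest beginning 33 bases before the start. In the 300-base window CENPF is counted with the CHR core, though the printed bases hold none. KNSTRN lies on chromosome 15 at 40382721 to 40394246 on the plus strand of GRCh38, with no other annotated gene over its exons.

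In the inner kinetochore of siANKRD35 cells, CENPW had 43.1, 44.1 and 40.1 FPKM in siANKRD35 libraries, against 22.8, 21.6 and 21.4 FPKM in sicontrol_for_siANKRD35, close to a doubling without overlap (1.94-fold; 0.92 ± 0.071, adjusted p = 0.000621). At 795 bases of exons it is the shortest member, and its change after length and GC correction was 0.63. CENPA had 28.8, 24.4 and 27.3 FPKM in siANKRD35 libraries, against 17.2, 17.6 and 15.4 FPKM in sicontrol_for_siANKRD35 (0.65 ± 0.091, adjusted p = 0.00296). CENPM (0.61) and CENPH (0.45) also rose. The other 9 tested inner members did not pass, with log2 changes of -0.14 (CENPT) to 0.42 (CENPK).

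In the Ndc80 complex, SPC24 had 11.8, 9.39 and 9.70 FPKM in siANKRD35 libraries, against 4.66, 4.63 and 5.93 FPKM in sicontrol_for_siANKRD35 (2.03-fold; 0.90 ± 0.12, adjusted p = 0.00268). SPC25 had 15.1, 20.3 and 14.6 FPKM in siANKRD35 libraries, against 8.16, 8.23 and 9.95 FPKM in sicontrol_for_siANKRD35 (0.84 ± 0.14, adjusted p = 0.00512). Both were higher in 3 of 3 libraries than in any control, whereas NDC80, with 7.33, 9.95 and 7.99 FPKM in siANKRD35 libraries, against 6.55, 7.43 and 7.37 FPKM in sicontrol_for_siANKRD35, overlapped its controls and did not pass (0.21 ± 0.12, adjusted p = 0.201). NUF2 (0.52), ZWINT (0.64), DSN1 (0.28) and PMF1 (0.27) rose. After the length and GC correction DSN1 and PMF1 no longer passed. KNL1 had 1.71, 2.02 and 2.17 FPKM in siANKRD35 libraries, against 1.68, 1.96 and 1.98 FPKM in sicontrol_for_siANKRD35, with overlapping groups, and did not pass (0.046 ± 0.096, adjusted p = 0.739), nor did NSL1 (0.29) and MIS12 (-0.13); after that correction MIS12 passed as lower (-0.33).

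Of the checkpoint genes, BUB3, the partner through which BUB1 and BUB1B reach KNL1, rose by 0.63 (37.7 ± 5.67 FPKM in siANKRD35 and 23.9 ± 1.02 FPKM in sicontrol_for_siANKRD35). MAD2L1 had 18.3, 22.4 and 17.6 FPKM in siANKRD35 libraries, against 12.3, 13.8 and 12.7 FPKM in sicontrol_for_siANKRD35 (0.55 ± 0.10, adjusted p = 0.00827). BUB1 had 21.3, 29.2 and 23.7 FPKM in siANKRD35 libraries, against 16.9, 18.3 and 18.4 FPKM in sicontrol_for_siANKRD35 (0.44 ± 0.12, adjusted p = 0.0275). In all 3 of these genes replicate 2 was the highest library, and the other siANKRD35 libraries were still above every control. BUB1B (0.20), TTK (0.46) and ZW10 (0.25) did not pass.

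All 4 members of the chromosomal passenger complex rose. AURKB had 72.8, 55.3 and 68.4 FPKM in siANKRD35 libraries, against 41.8, 39.5 and 39.1 FPKM in sicontrol_for_siANKRD35 (0.68 ± 0.11, adjusted p = 0.00462). BIRC5 had 63.5, 51.6 and 53.9 FPKM in siANKRD35 libraries, against 41.9, 42.8 and 40.7 FPKM in sicontrol_for_siANKRD35 (0.42 ± 0.092, adjusted p = 0.0135). Here replicate 2 was the lowest library of its group, yet above the controls. CDCA8 had 27.1, 26.2 and 25.6 FPKM in siANKRD35 libraries, against 17.8, 17.8 and 18.9 FPKM in sicontrol_for_siANKRD35, the most even of the 4 (0.51 ± 0.067, adjusted p = 0.00244), and INCENP rose by 0.50. The shugoshins SGO1 (0.0064) and SGO2 (0.34) did not pass. Of the 20 calls, those of 10 members held under every alternative: CENPA, CENPM, CENPW, SPC24, SPC25, BUB3, MAD2L1, AURKB, CDCA8 and KNSTRN. The call of BIRC5 was lost with quantile normalization and without any 1 of the 3 controls (log2 change 0.17 to 0.48, adjusted p 0.00271 to 0.126), and that of BUB1 under 6 alternatives (adjusted p 0.00126 to 0.101). The log2 change of AURKB was 0.45 to 0.80, that of CDCA8 0.34 to 0.54 and that of SPC25 0.56 to 0.93 over the alternatives.

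Around the kinetochore in siANKRD35 cells, 5 of 9 CENP-A deposition genes rose (55.6%, beside 19.4% of all genes). Of these, HJURP (0.72, limma adjusted p = 0.0013) and MIS18A (0.56) had the smallest adjusted p. Of 25 other kinetochore and checkpoint genes 7 rose (28.0%) and 1 fell (4.0%). CENPV (0.60) and the histone-fold subunit CENPX (0.88) had the smallest adjusted p. Of 15 cohesin genes 3 rose (20%, beside 19.4% of all genes) and 4 fell (26.7%, beside 16.9%), among them the loader NIPBL (-0.70, adjusted p = 0.00509) and the protease separase, ESPL1 (-0.44). Of 17 tested genes of the anaphase-promoting complex, 5 rose (29.4%, beside 19.4% of all genes) and 0 fell. Its ubiquitin-conjugating enzyme UBE2C had 134, 132 and 132 FPKM in siANKRD35 libraries, against 63.5, 61.4 and 61.9 FPKM in sicontrol_for_siANKRD35 (1.08 ± 0.061, adjusted p = 0.000311), and its inhibitor FBXO5 rose by 0.83. Of 21 tested regulators of late cell cycle promoters, 2 rose and 2 fell (9.52% each), under the 19.4% and 16.9% of all genes. FOXM1, an activator of late cell cycle genes, was among those that fell (-0.43).

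In siMITD1 cells the members were split. Of 39 tested, 14 were higher, 9 lower and 16 did not pass (limma, adjusted p under 0.05), where 30% of all 10415 genes were higher and 35.6% lower, 65.6% in all. The members' shares were 35.9% higher, near that of all genes, and 23.1% lower. The median log2 change was 0.0057, beside -0.026 for all genes, and 1 member was more than 1.5-fold higher. The groups were apart for 14 members higher and 7 lower, where 32.5% and 37.9% of all genes did so. SKA1 was listed at 0 in all 6 libraries of this table and SPC25 stayed between 0.322 and 0.841 FPKM, while in shcontrol and sicontrol_for_siANKRD35 SKA1 averaged 13.1 and 9.19 FPKM and SPC25 13.7 and 8.78 FPKM. Of 4886 genes at 5 FPKM or more in all 12 libraries of the other tables, 16 were listed at 0 and 102 stayed under 1 FPKM in this one, so neither gene was tested here.

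ZW10, a subunit of the complex that brings dynein and the MAD1 and MAD2 proteins to kinetochores, had the largest increase. It had 11.996, 11.7 and 11.2 FPKM in siMITD1 libraries, against 6.37, 6.49 and 5.53 FPKM in sicontrol_for_siMITD1, 11.6 ± 0.404 FPKM in siMITD1 and 6.13 ± 0.526 FPKM in sicontrol_for_siMITD1 (SD, n = 3 each), a 1.90-fold difference (0.83 ± 0.060, adjusted p = 6.07e-06). No library of one group came near the other. Of the remaining checkpoint genes, BUB1B had 20.04, 20.5 and 21.2 FPKM in siMITD1 libraries, against 25.3, 25.5 and 25.6 FPKM in sicontrol_for_siMITD1 and fell by 19.1% (-0.29 ± 0.033, adjusted p = 7.73e-05). BUB1 had 34.4, 33.7 and 35.6 FPKM in siMITD1 libraries, against 31.8, 30.8 and 32.6 FPKM in sicontrol_for_siMITD1 (0.12 ± 0.035, adjusted p = 0.016). MAD2L1 had 22.8, 24.03 and 24.5 FPKM in siMITD1 libraries, against 24.4, 25.1 and 25.3 FPKM in sicontrol_for_siMITD1 and did not pass, with overlapping groups (-0.067 ± 0.037, adjusted p = 0.146). TTK fell (-0.13), and BUB3 did not pass (-0.013). After length and GC correction 1 of the 6 was higher and 4 lower, MAD2L1 (-0.10) and BUB3 (-0.073) now among the lower.

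The inner kinetochore held both directions, with 5 of 13 tested members higher (38.5%), 3 lower (23.1%) and 5 that did not pass. Over all genes of this comparison, 30.0% were higher and 35.6% lower. CENPN, which reads the CENP-A nucleosome directly, had 13.6, 13.1 and 13.9 FPKM in siMITD1 libraries, against 22.8, 21.7 and 20.8 FPKM in sicontrol_for_siMITD1, 13.5 ± 0.387 FPKM in siMITD1 and 21.8 ± 0.978 FPKM in sicontrol_for_siMITD1 (SD, n = 3 each). It fell by 37.9% without overlap (-0.65 ± 0.043, adjusted p = 3.43e-06). Genes on the opposite strand, CMC2 among them, cover 22.8% of its exonic bases, and CMC2 did not pass in this comparison (log2 change 0.078). CENPM had 17.3, 19.8 and 17.6 FPKM in siMITD1 libraries, against 26.8, 27.2 and 25.6 FPKM in sicontrol_for_siMITD1 (-0.52 ± 0.052, adjusted p = 3.87e-05). CENPQ fell too (-0.29), whereas CENPK had 5.37, 6.61 and 4.77 FPKM in siMITD1 libraries, against 4.51, 3.79 and 4.36 FPKM in sicontrol_for_siMITD1 (0.33 ± 0.10, adjusted p = 0.0193). All 3 siMITD1 libraries of CENPK were above the controls, though widely spread. CENPA had 38.4, 39.7 and 37.6 FPKM in siMITD1 libraries, against 35.9, 34.3 and 32.9 FPKM in sicontrol_for_siMITD1 (0.16 ± 0.039, adjusted p = 0.00551), again without overlap. CENPL (0.26), CENPW (0.26) and CENPO (0.18) rose, and CENPC (0.012), CENPT (0.011), CENPI (-0.00080), CENPH (-0.035) and CENPU (-0.086) did not pass.

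The promoters of ZW10 and CENPN are shown as those of the largest increase and the largest decrease in this comparison (GRCh38.p14, RefSeq, 250 bases before the start; chr11:113773693-113773942, minus strand and chr16:81006964-81007213, plus strand), with capitals as above.
ZW10: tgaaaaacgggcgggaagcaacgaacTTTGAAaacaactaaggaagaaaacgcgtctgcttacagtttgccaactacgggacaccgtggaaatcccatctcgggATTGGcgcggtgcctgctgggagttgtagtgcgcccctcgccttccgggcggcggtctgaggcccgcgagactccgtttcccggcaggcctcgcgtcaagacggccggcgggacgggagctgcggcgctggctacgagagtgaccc
CENPN: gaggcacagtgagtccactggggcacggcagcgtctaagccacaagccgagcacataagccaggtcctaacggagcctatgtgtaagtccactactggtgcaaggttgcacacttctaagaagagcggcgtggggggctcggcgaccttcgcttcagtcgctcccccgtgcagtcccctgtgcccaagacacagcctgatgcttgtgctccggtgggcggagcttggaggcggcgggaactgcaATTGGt
ZW10 holds 1 CHR core, beginning 224 bases before the start, and 1 CCAAT box at 146 bases. CENPN holds 1 CCAAT box, 6 bases before the start. In the 300-base window CENPN is counted with the CHR core, though the printed bases hold none. These distances are to the RefSeq start. In GENCODE release 29 the CENPN gene begins at 81006498, before the printed bases, and the ZW10 gene at 113773811, within them.

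Of the 9 outer kinetochore genes tested after MITD1 knockdown, 3 rose (33.3%, near the 30.0% of all genes). In this layer 1 fell (11.1%, beside 35.6% of all genes) and 5 did not pass. The 3 that rose encode subunits of the Ndc80 complex. NDC80 had 24.2, 26.5 and 25.2 FPKM in siMITD1 libraries, against 22.2, 21.3 and 21.8 FPKM in sicontrol_for_siMITD1 (0.21 ± 0.040, adjusted p = 0.00169). NUF2 (0.20) and SPC24 (0.23) rose by similar amounts. PMF1, of the Mis12 complex, had 6.11, 6.68 and 5.36 FPKM in siMITD1 libraries, against 7.11, 7.56 and 8.21 FPKM in sicontrol_for_siMITD1 (-0.29 ± 0.077, adjusted p = 0.00909). Its read-through gene PMF1-BGLAP shares 23.3% of exonic bases and was listed at 0 in 5 of these 6 libraries. KNL1 had 6.62, 6.36 and 6.90 FPKM in siMITD1 libraries, against 6.37, 6.36 and 5.97 FPKM in sicontrol_for_siMITD1 and did not pass (0.076 ± 0.049, adjusted p = 0.199), nor did NSL1 (-0.14), ZWINT (-0.086), MIS12 (-0.058) and DSN1 (-0.0063).

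In the passenger complex BIRC5 had 55.3, 57.2 and 54.6 FPKM in siMITD1 libraries, against 44.6, 44.9 and 47.6 FPKM in sicontrol_for_siMITD1 (0.28 ± 0.035, adjusted p = 0.000135), all above the controls. CDCA8 fell (-0.28, 52.6 ± 1.77 FPKM in siMITD1 and 63.9 ± 1.83 FPKM in sicontrol_for_siMITD1), and AURKB, with 42.3, 41.01 and 41.6 FPKM in siMITD1 libraries, against 39.3, 45.4 and 44.3 FPKM in sicontrol_for_siMITD1, overlapped its controls and did not pass (-0.044 ± 0.051, adjusted p = 0.468). INCENP did not pass (0.086). Of the shugoshins, SGO1, the protector of cohesin in mitosis, had 3.83, 4.16 and 4.98 FPKM in siMITD1 libraries, against 7.19, 6.61 and 7.46 FPKM in sicontrol_for_siMITD1 and fell by 38.96% (-0.61 ± 0.082, adjusted p = 0.00022), while the small rise of SGO2 (0.15) was lost under 7 of 13 alternatives (log2 change 0.085 to 0.19, adjusted p 0.00273 to 0.183). SGO1 shares 17.7% of exonic bases with its antisense gene SGO1-AS1, which stayed at 0.0297 FPKM or less in these libraries. Of the attachment genes, SKA2 had 27.98, 28.6 and 28.7 FPKM in siMITD1 libraries, against 19.9, 19.95 and 17.97 FPKM in sicontrol_for_siMITD1 (0.54 ± 0.044, adjusted p = 1.2e-05). CENPF had 21.1, 21.4 and 21.8 FPKM in siMITD1 libraries, against 15.4, 14.8 and 15.98 FPKM in sicontrol_for_siMITD1 (0.45 ± 0.038, adjusted p = 1.38e-05). Both stood clear of their controls, and SKA3 fell (-0.22) with overlapping groups, while KNSTRN (0.064) and SPAG5 (0.0057) did not pass. Of the 23 calls, 18 held under every alternative. Of the genes given by library, BUB1 (adjusted p 0.00057 to 0.0567) and CENPK (adjusted p 0.00113 to 0.069) were the exceptions; BUB1 was lost without siMITD1 replicate 3 or control replicate 2 and after length and GC correction, CENPK under 3 alternatives, among them leaving out control replicate 2.

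**Figure D3:**
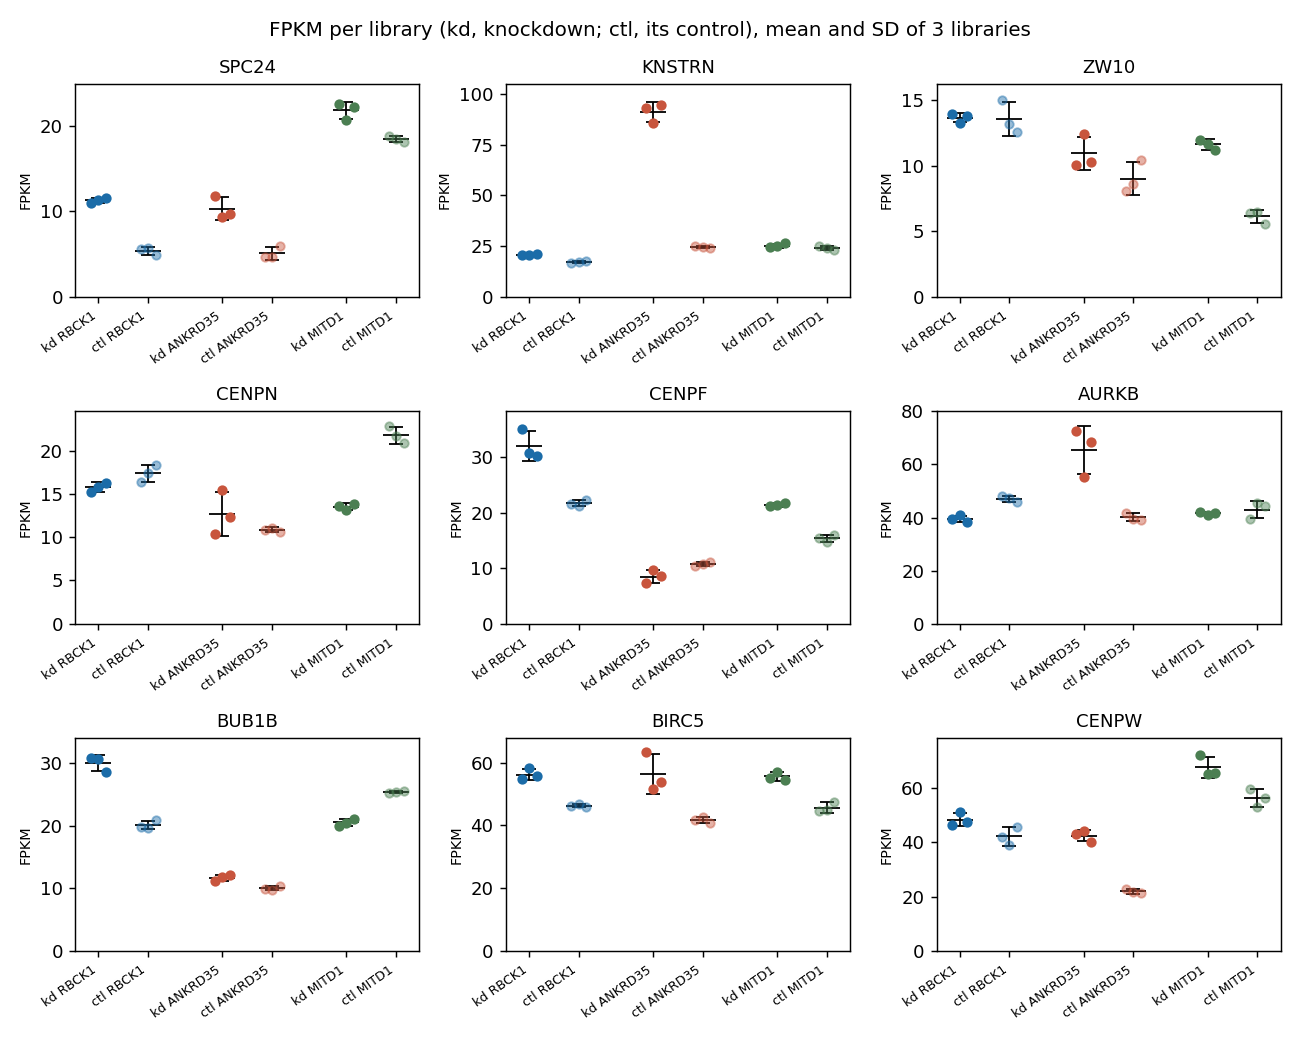
Each panel gives FPKM (y axis, from 0) of 1 gene in all 18 libraries; points are libraries, black marks the mean and SD of 3, and each knockdown (kd) stands left of its own control (ctl). KNSTRN reached 85.4 to 94.7 FPKM in siANKRD35 and ZW10 11.2 to 11.996 FPKM in siMITD1, each above all 3 of its controls.

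Of the CENP-A deposition genes in siMITD1 cells, 0 of 9 rose and 5 fell (55.6%), where 30% of all genes were higher and 35.6% lower. OIP5, a subunit of the Mis18 complex that licenses new CENP-A, had 5.86, 6.10 and 6.24 FPKM in siMITD1 libraries, against 13.8, 15.5 and 16.1 FPKM in sicontrol_for_siMITD1 (-1.19 ± 0.060, adjusted p = 7.83e-07). The histone chaperone RBBP4 fell by 33.3%. Of 21 tested other kinetochore and checkpoint genes, 5 rose (23.8%) and 6 fell (28.6%), beside 30% and 35.6% of all genes. CDC20, the target of the checkpoint and activator of the anaphase-promoting complex, fell by 27.7% (-0.47 ± 0.027, adjusted p = 1.65e-06), and the dynein adaptor SPDL1 by 41.2%. Of 15 cohesin genes 6 rose (40.0%) and 5 fell (33.3%), with the ring subunits RAD21 (-0.41) and SMC1A (0.28) changing in opposite directions. Of 17 tested genes of the anaphase-promoting complex 2 rose (11.8%) and 8 fell (47.1%), beside 30% and 35.6% of all genes. CDC23 (-0.23) and ANAPC2 (-0.44) had the smallest adjusted p. Of 22 tested regulators of late cell cycle promoters 6 rose (27.3%) and 9 fell (40.9%). E2F4 (-0.79), the E2F of the DREAM complex, and its partner TFDP1 (-0.72) had the smallest adjusted p, and E2F2 the largest decrease (-0.87).

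The 3 comparisons use separate control libraries. Among the 39 members tested in all of them, 7 were called higher in all 3 (17.9%, where 1.71% of 9263 genes were): BIRC5, BUB1, CENPA, CENPW, NUF2, SKA2 and SPC24. Of these, CENPA and SPC24 held under every alternative in each comparison. Higher after both RBCK1 and ANKRD35 knockdown were 14 members (35.9%, where 6% of genes were), and after both RBCK1 and MITD1 knockdown 11 (28.2%, where 8.03% were). After both ANKRD35 and MITD1 knockdown the same 7 were higher (17.9%, where 5.24% of genes were). Other members went opposite ways. AURKB fell in shRBCK1 and rose in siANKRD35, as 4.22% of genes did. BUB1B, CDCA8, CENPM and TTK rose in shRBCK1 and fell in siMITD1, 10.3% of members beside 9.83% of genes. Of these, BUB1B held both calls under every alternative. The RBCK1 calls of CDCA8, CENPM and TTK and the MITD1 call of TTK did not hold under all of them. CDCA8, CENPM and PMF1 rose in siANKRD35 and fell in siMITD1, 7.69% of members beside 8.88% of genes; the rise of PMF1 was lost under 11 of 13 alternatives (adjusted p 0.0209 to 0.211). CENPQ was the only member to fall in more than 1 comparison, RBCK1 and MITD1, where 17.7% of genes did so. CENPU and NSL1 were called in none. No test was made between comparisons, since the tables were normalized separately.

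The promoter of CDCA8 is shown because its RNA was called in all 3 comparisons in differing directions; it was added after its values were seen. Its RBCK1 call did not hold without shRBCK1 replicate 3, shcontrol replicate 2 or shcontrol replicate 3 (adjusted p over the alternatives 0.00177 to 0.0699). It covers chr1:37692266-37692515, plus strand (GRCh38.p14, RefSeq), with capitals as above.
CDCA8: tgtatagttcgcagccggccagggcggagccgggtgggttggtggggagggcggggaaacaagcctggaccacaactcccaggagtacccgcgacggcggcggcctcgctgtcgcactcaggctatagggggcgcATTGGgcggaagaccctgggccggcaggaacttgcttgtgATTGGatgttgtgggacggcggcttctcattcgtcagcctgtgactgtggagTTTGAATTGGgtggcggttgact
It holds 3 CCAAT boxes and 1 CHR core, which begins 23 bases before the RefSeq start and shares a base with the nearest box. In GENCODE release 29 the CDCA8 gene begins at 37692418, within the printed bases.

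Levels in the controls were also set side by side, without a test. The median member was at 15.1 FPKM in shcontrol, 10.4 FPKM in sicontrol_for_siANKRD35 and 15.7 FPKM in sicontrol_for_siMITD1. BIRC5 was nearly equal in the 3 groups, at 46.4 ± 0.332, 41.8 ± 1.06 and 45.7 ± 1.64 FPKM (SD, n = 3 each), and so was SKA2, at 20.1 ± 1.06, 21.7 ± 1.10 and 19.3 ± 1.13 FPKM. CDCA8 was not, at 49.98 ± 1.56, 18.2 ± 0.62 and 63.9 ± 1.83 FPKM in the same order. SPC24 was 3.64 times as high in sicontrol_for_siMITD1 (18.5 ± 0.335 FPKM) as in sicontrol_for_siANKRD35 (5.07 ± 0.739 FPKM), and in shcontrol it was at 5.38 ± 0.439 FPKM. For KNL1, whose exons span 10250 bases, shcontrol had 7.59 ± 0.319 FPKM, sicontrol_for_siANKRD35 1.87 ± 0.168 FPKM and sicontrol_for_siMITD1 6.23 ± 0.226 FPKM. The part of the separate normalization and of library differences in these gaps was not tested.

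**Figure D4:**
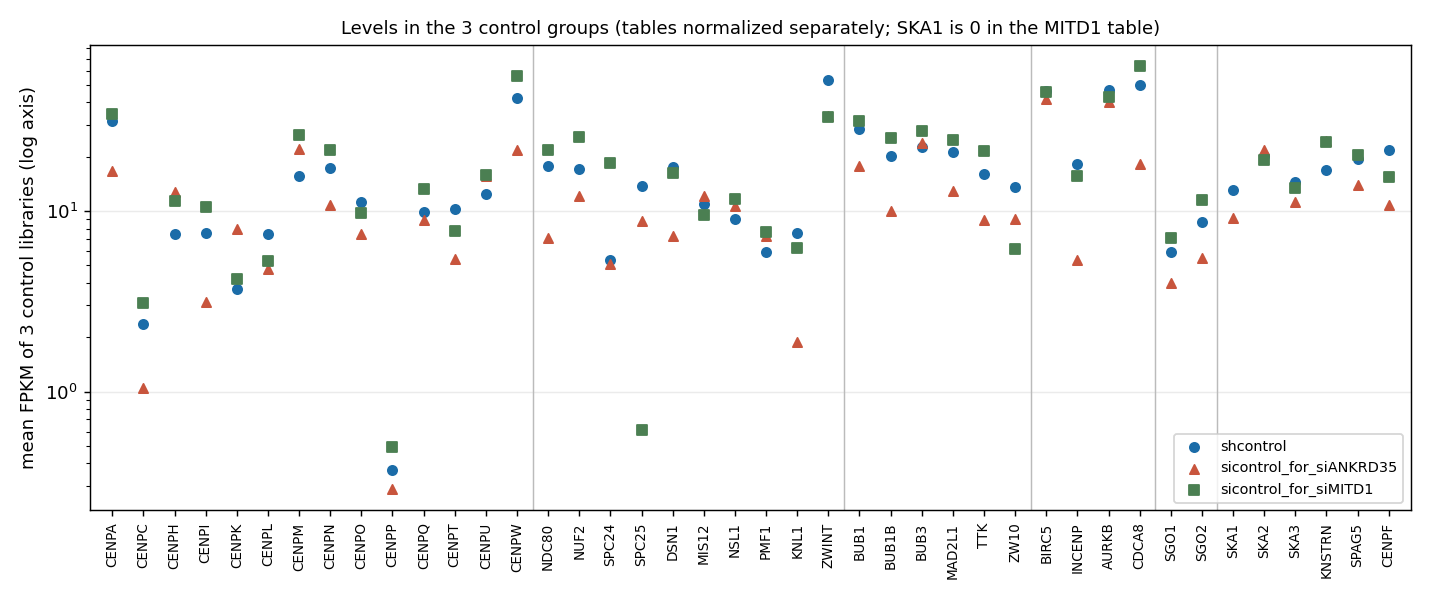
Mean FPKM (log axis) of each member in the 3 control groups of 3 libraries, ordered by role with grey lines between roles. BIRC5, AURKB and SKA2 differ by at most 1.17-fold between the groups, KNL1 by 4.06-fold; SKA1, listed at 0 in the MITD1 table, has no square.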

How the data were processed

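RNA-seq of 786-O cells gave 18 libraries in 6 groups of 3, in 3 tables. The authors deposited FPKM per gene with gene length in 2 of the tables, per the file headers. For the aligner and the counting strand, nothing is given in the sources used here. Per the submitters' processing notes the build was the mouse build mm10, whereas all 58735 identifiers and lengths match human GENCODE release 29, so human names and GRCh38 coordinates were used. FPKM times length gave whole reads (within 0.01) in the RBCK1 and ANKRD35 tables, which gave the depth; for the MITD1 table lengths came from the RBCK1 table by symbol. Depth limits the precision of weakly expressed genes: a tested member had at least 148 reads in each library. In the ANKRD35 table, 6 value columns name no sample of the series and were not used.

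Within each table, log2(FPKM + 1) was fitted with limma 3.58.1 (trend, R 4.3.3), knockdown minus control, on genes at 1 FPKM or more in at least 3 of 6 libraries. P-values were adjusted by Benjamini-Hochberg over all genes of the table and called under 0.05. The fit was run on simulated counts with a fixed spread between libraries and no length or GC trend. That setting does not cover the trends seen in the ANKRD35 libraries. With 3 against 3 libraries, an exact permutation test of a single gene cannot go below p = 0.10, so all p-values come from the fit across genes. The alternatives were a pseudocount of 0.1, no filter, quantile normalization, voom on the recovered reads, a replicate block, adjustment of each library for gene length and GC content, that adjustment with the block, and leaving out each library. Members and pathway lists were chosen with earlier results of these data known. By rule, values by library are given for CENPA, NDC80, KNL1, BUB1, MAD2L1, AURKB and BIRC5, and per comparison for the called members with the 5 largest increases and 5 largest decreases and the 2 smallest adjusted p; from each pathway list, the 2 genes with the smallest adjusted p are named, except a few results that are not reported here. Promoter sequences are RefSeq's (GRCh38.p14), used here for 35 members. Tables were read with Python 3.11.15 and pandas 2.3.3.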

Additional observations from a re-analysis of the deposited data

How the results depend on the processing

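Of the member calls, 18 of 29 (RBCK1), 10 of 20 (ANKRD35) and 18 of 23 (MITD1) held under every alternative run, and none was reversed. With quantile normalization, 2 members were lower after RBCK1 knockdown and the median log2 changes were 0.21 for RBCK1 and 0.039 for MITD1; with voom the MITD1 median was 0.035. Without the filter, 0 members were lower after ANKRD35 knockdown. Leaving out single libraries gave 18 to 22 members higher, 2 to 4 lower, a median of 0.13 to 0.18 and 4952 to 5471 genes called for RBCK1. For ANKRD35 it gave 10 to 23 higher, 0 to 2 lower, a median of 0.22 to 0.40 and 2267 to 6536 genes called; for MITD1 the median was 0.00050 to 0.032. Deviations of same-numbered libraries correlated by -0.007, 0.008 and 0.028 for RBCK1 and by 0.179, 0.114 and -0.087 for ANKRD35. For MITD1 the values were 0.105, 0.032 and -0.001. Correlations this small, over 3 libraries a group, cannot settle whether the numbers pair them. The replicate block left 22 members higher and 3 lower for RBCK1, 17 and 0 for ANKRD35, and 14 and 11 for MITD1. The cause of these shifts was not tested. Weakly expressed members rest on few reads, and 3 libraries a group limit every estimate of spread.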
